A study of Mus musculus with 23 samples.

Results

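The unfolded protein and ATF4 response was described through 10 genes, a list of names whose rule used no measured value, drawn up with earlier results of these data known: the endoplasmic reticulum (ER) chaperones Hspa5, Calr, Hsp90b1 and Pdia4, the ER stress genes Xbp1 and Herpud1, and Atf4, Asns, Ddit3 and Trib3 of the ATF4 branch. All 10 were among the 14500 genes measured, and all 10 were among the 12855 tested. The tissue was the tibialis anterior, a fast muscle at the front of the lower leg, and whole muscle was read as bulk RNA in 23 libraries. All mice were female C57BL/6 fed ad libitum, and muscle was taken at zeitgeber time 12 (ZT12) or 0 (ZT0), that is 12 or 0 h after lights on. In wild-type mice there were 8 libraries of 6-OHDA muscle, 4 at each time, from mice of 12 to 16 weeks, and 7 libraries of sham muscle, 3 at ZT12 and 4 at ZT0, from mice of 12 to 18 weeks. In RE-RE mice there were 4 libraries of 6-OHDA muscle, 2 at each time, from mice of 12 to 18 weeks, and 4 libraries of sham muscle, 2 at each time, from mice of 10 to 11 weeks. RE-RE mice are homozygous for a stopped allele, Bmal1(stopFL/stopFL), and carry the transgenes Hsa-Cre(-/tg) and, beside it, Syt10-Cre(-/tg). A stop cassette silences the clock gene Bmal1 (Arntl) until Cre removes it, in neurons that include the suprachiasmatic nucleus for Syt10-Cre and in skeletal muscle fibres for Hsa-Cre, while cells without Cre keep the cassette. 6-OHDA, which enters sympathetic nerve endings and damages them, was injected into the muscle at 50 mg/kg repeatedly over 2 weeks, followed by 2 weeks of recovery. Sham muscle had no injection, so the toxin, its ascorbic acid vehicle, the needle and the anaesthesia cannot be told apart, and in RE-RE mice age and 6-OHDA cannot be told apart either. RE-RE sham mice were also younger than all wild-type sham mice, so in sham muscle age and genotype cannot be told apart. Loss of sympathetic nerve endings was not measured here.

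Proteins that enter the secretory pathway fold in the ER with the help of chaperones and disulfide isomerases. When unfolded proteins build up there, membrane sensors respond: IRE1 splices the Xbp1 mRNA so that it encodes an active transcription factor, ATF6 is cut to release another, and PERK phosphorylates the translation factor eIF2. Phosphorylated eIF2 slows most translation but favours that of Atf4 mRNA. Other kinases, which sense amino acid shortage, haem lack or viral RNA, act on the same factor, so ATF4 and its targets also answer stresses outside the ER. Skeletal muscle has a specialised ER, the sarcoplasmic reticulum, that stores calcium for contraction. Values per gene count all mRNA of that gene, so neither the splicing of Xbp1 nor the amount of ATF4 protein was measured.

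Promoters of 5 members are shown because they hold motifs for which this response is known. The ER stress element (ERSE, CCAAT and CCACG with any 9 bases between them) and the shorter ERSE-II (ATTGG and CCACG with any 1 base between them) are bound by ATF6 and XBP1 with NF-Y, and the C/EBP-ATF response element (CARE, TGATGNAA) by ATF4 with a partner. The windows are the 250 bases before the gene's start in RefSeq, build GRCm38.p6, written 5′ to 3′ on the gene's own strand, and capitals mark a motif found on either strand.
Hspa5, chr2:34771840-34772089, plus strand: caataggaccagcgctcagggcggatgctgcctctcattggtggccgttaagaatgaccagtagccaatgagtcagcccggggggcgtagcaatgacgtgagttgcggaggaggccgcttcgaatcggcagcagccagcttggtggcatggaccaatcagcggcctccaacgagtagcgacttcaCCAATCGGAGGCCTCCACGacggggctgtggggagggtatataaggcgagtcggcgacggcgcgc
Calr, chr8:84846932-84847181, minus strand: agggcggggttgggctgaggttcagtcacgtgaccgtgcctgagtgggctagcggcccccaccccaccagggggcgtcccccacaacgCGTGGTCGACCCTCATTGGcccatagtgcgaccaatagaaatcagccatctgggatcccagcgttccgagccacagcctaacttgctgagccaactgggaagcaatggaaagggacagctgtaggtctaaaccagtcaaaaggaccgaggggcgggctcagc
Hsp90b1, chr10:86705445-86705694, minus strand: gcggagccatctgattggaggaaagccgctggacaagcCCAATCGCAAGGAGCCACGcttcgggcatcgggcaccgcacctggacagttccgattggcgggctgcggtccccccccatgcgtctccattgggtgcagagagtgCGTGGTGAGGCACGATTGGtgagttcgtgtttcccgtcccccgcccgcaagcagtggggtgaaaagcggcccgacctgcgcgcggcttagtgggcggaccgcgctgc
Herpud1, chr8:94386179-94386428, plus strand: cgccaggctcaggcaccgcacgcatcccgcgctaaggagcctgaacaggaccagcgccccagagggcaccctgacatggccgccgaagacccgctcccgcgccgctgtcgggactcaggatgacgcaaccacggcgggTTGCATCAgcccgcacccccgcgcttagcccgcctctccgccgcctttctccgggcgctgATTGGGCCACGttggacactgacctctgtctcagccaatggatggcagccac
Asns, chr6:7693210-7693459, minus strand: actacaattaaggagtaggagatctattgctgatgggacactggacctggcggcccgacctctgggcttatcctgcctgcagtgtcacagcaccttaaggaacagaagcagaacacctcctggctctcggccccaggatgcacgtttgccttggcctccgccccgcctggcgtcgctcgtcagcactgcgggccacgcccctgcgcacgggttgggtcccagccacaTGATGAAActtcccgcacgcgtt
In Hspa5 the ERSE lay 65 to 47 bases before the start, in Calr it lay on the opposite strand at 162 to 144 bases, and Hsp90b1 held 1 on its own strand at 212 to 194 bases and 1 on the opposite strand at 107 to 89 bases. The marked runs of Herpud1 are a CARE on the opposite strand at 112 to 105 bases and an ERSE-II at 52 to 42 bases, which do not overlap. Asns held a CARE 23 to 16 bases before its start. Of 32851 RefSeq windows of this length, 0.113% held an ERSE, 0.0304% an ERSE-II and 3.45% a CARE, counting both strands. The unfolded protein response element core, TGACGTGG, occurred in 0.563% of windows and in none of the members'. All 10 members had a window, and none of these letters was found in those of Pdia4, Xbp1, Atf4, Ddit3 and Trib3. A match is a run of letters and was not tested as a binding site. Gene positions given below are from GENCODE, whose starts can differ from those of RefSeq. A window can therefore reach into the positions printed for its gene, as that of Hspa5 does.

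The deposited values are log2(FPKM + 0.01), where FPKM is fragments per kilobase of exon, scaled to a total for each library, a level per length that can be compared between genes. Recovered reads summed to 0.839 to 1.52 times that total, so it was not the plain sum of a library's reads. This ratio was 1.15 or more in every sham library, and 1.13 or less in every 6-OHDA library except RE-RE library 2, at 1.36. Recovered depth was 21.1 M to 36.1 M reads per library (median 28.1 M), which put 23 to 187 reads on Asns and 10 to 74 on Trib3, against 290 or more on each of the other 8 members. Log2 differences below are between group means of the deposited values, tested with limma over all 12855 genes and Benjamini-Hochberg adjusted, with 0.05 as the threshold; SE is the model's standard error. A fold is taken from these log2 values and understates the change of genes with a level near the added 0.01. The labels do not state that each library is a separate mouse, so p-values measure the spread between libraries. Arntl lay at 2.37 to 4.07 FPKM at ZT12 and 8.87 to 14.3 FPKM at ZT0 in RE-RE muscle, and at 1.23 to 2.22 FPKM at ZT12 and 9.12 to 15.7 FPKM at ZT0 in wild-type muscle. Muscle fibre markers summed to at least 33676 FPKM in every library. The median residual SD over genes was 0.451 in RE-RE groups and 0.216 in wild-type groups, and all 10 members had the larger SD in RE-RE, so errors pooled over all groups understate the spread of RE-RE muscle and overstate that of wild-type muscle. By the median absolute log2 deviation from the other libraries of the same genotype and treatment, RE-RE 6-OHDA library 2 stood farthest out, at 0.477, the 4 RE-RE sham libraries lay at 0.385 to 0.433, and wild-type libraries at 0.126 to 0.267.

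Over all 23 libraries, Atf4 mRNA was the highest of the 10, with a median of 86.1 FPKM (57.7 to 151). Calr, a calcium-binding lectin chaperone, followed at 51.7 FPKM (42.4 to 74.3), Hspa5 at 45.8 FPKM (36.1 to 87.7) and Herpud1 at 42.7 FPKM (27.5 to 71.0). Xbp1 had a median of 27.4 FPKM (22.4 to 41.4), Hsp90b1 25.4 FPKM (19.3 to 46.4), Ddit3 11.8 FPKM (6.88 to 23.1) and Pdia4 8.24 FPKM (6.24 to 15.6). Asns and Trib3 were low, with medians of 0.963 FPKM (0.436 to 1.98) and 0.683 FPKM (0.280 to 1.42). Each gene's range overlapped that of its neighbour in this order, except that every library had more Pdia4 than any had Asns. Genes entered the tests with about 1 FPKM in 2 or more libraries. Trib3 reached this in 2 libraries, both injected (RE-RE 6-OHDA library 1 and wild-type 6-OHDA library 8), and Asns in 10 injected libraries and 1 sham library, while the other 8 members reached it in all 23. Asns and Trib3 thus entered through the injected group, so a count that includes their higher values supports nothing by itself. Their calls between 6-OHDA and sham muscle, as the mean of both times, are given below also with no filter on low values. Whether reads were counted by strand is not given in the sources used here. Ddit3 shares 68 bases with Mars and 15 with Gm4189 on the opposite strand, and Hsp90b1 shares 4598 bases with 1810014B01Rik on the opposite strand and 977 with Gm15344 on its own, so their levels, and that of Mars below, are less certain.

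**Figure D1:**
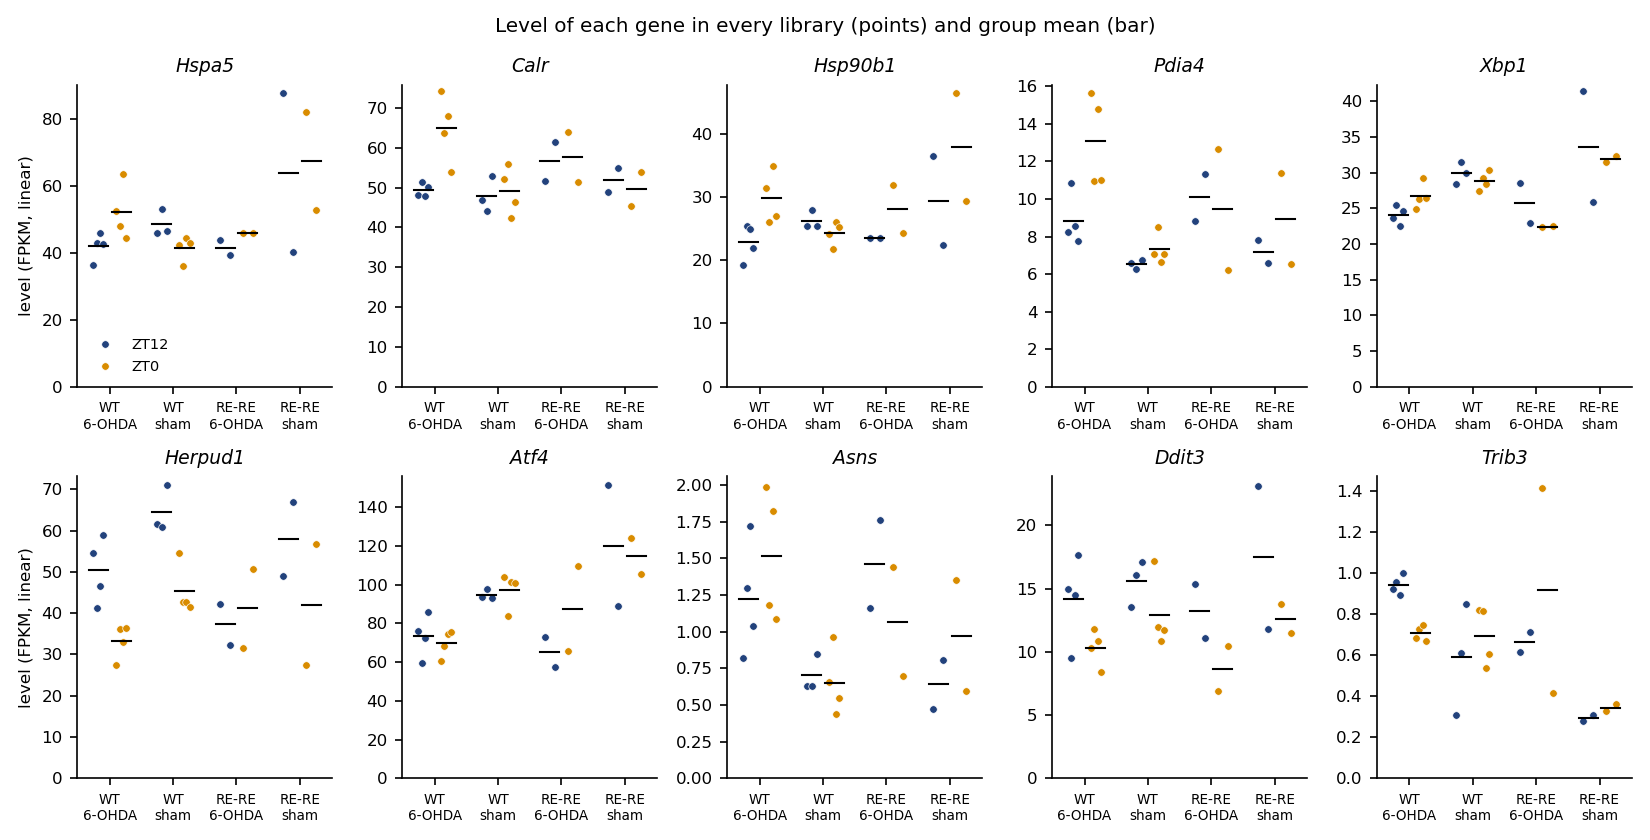
Level of each of the 10 genes in every library, in FPKM on a linear axis from 0, for wild-type (WT) and RE-RE muscle after 6-OHDA or sham; blue points are ZT12, orange points ZT0 and the bar is the group mean. In wild-type muscle the injected libraries lie mostly above sham for Pdia4 and Asns and mostly below it for Atf4, and RE-RE sham libraries are spread widely for Hspa5, Hsp90b1 and Atf4.

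The first comparison asks how 6-OHDA muscle differed from sham muscle in wild-type mice, as the mean of the differences at both times. Of the 10 members 4 passed the test, Pdia4 and Asns higher and Atf4 and Herpud1 lower in 6-OHDA muscle. Of all genes tested 34.8% passed, 18.8% higher and 15.9% lower, so 4 of 10 is near the share of all genes. The members' median log2 difference was 0.05, beside -0.04 over all genes. Of the 8 members that reached the minimum in every library, 1 passed higher and 2 lower, with a median of -0.09. No member separated the 8 injected from the 7 sham libraries without overlap, against 8.02% of all genes with every 6-OHDA library higher and 5.85% with every one lower.

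Among the ER chaperones, Pdia4 changed. Pdia4 (ENSMUSG00000025823, chromosome 6, 47796141 to 47813430), which encodes the disulfide isomerase ERp72, ranged over 7.74 to 15.6 FPKM (median 10.9) in wild-type 6-OHDA muscle and 6.27 to 8.49 FPKM (median 6.75) in wild-type sham muscle. The injected libraries were higher, with overlap at their lower end. It rose 1.54-fold in wild-type 6-OHDA muscle, with means of 11.0 ± 2.93 FPKM after 6-OHDA (SD, n = 8) and 6.99 ± 0.722 FPKM after sham (SD, n = 7), a log2 difference of 0.62 ± 0.15 SE (limma adjusted p = 0.00517). Calr (ENSMUSG00000003814, chromosome 8, 84841850 to 84846934) ranged over 47.9 to 74.3 FPKM (median 52.7) after 6-OHDA and 42.4 to 56.0 FPKM (median 46.8) after sham, a log2 difference of 0.22 ± 0.09 SE (not called; limma adjusted p = 0.0640). Hspa5 (ENSMUSG00000026864, chromosome 2, 34771970 to 34777547) encodes BiP, the Hsp70 chaperone of the ER that also holds the stress sensors inactive. Its levels were 36.2 to 63.4 FPKM (median 45.2) after 6-OHDA and 36.1 to 53.1 FPKM (median 44.6) after sham, and the log2 difference was 0.06. Hsp90b1 (ENSMUSG00000020048, chromosome 10, 86690209 to 86705509), which encodes GRP94, the Hsp90 chaperone of the ER, ranged over 19.3 to 34.8 FPKM (median 25.7) after 6-OHDA and 21.8 to 27.9 FPKM (median 25.3) after sham, a log2 difference of 0.04. The injected and sham ranges of Hspa5 and Hsp90b1 overlapped over most of their length, and neither gene passed. Hspa5, Calr and Hsp90b1 are the 3 members with an ERSE in the windows shown, and the Pdia4 window held none. Only exact matches in windows of 250 bases were sought, and a link between motif and level was not tested.

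Herpud1 and Xbp1 both had negative differences as deposited, and Herpud1 passed; Xbp1 turned positive when libraries were scaled to their own totals of reads, as given below. Herpud1 (ENSMUSG00000031770, chromosome 8, 94386438 to 94395377), an ER membrane protein that acts in the disposal of misfolded proteins, ranged over 27.5 to 58.9 FPKM (median 38.8) in wild-type 6-OHDA muscle and 41.5 to 71.0 FPKM (median 54.7) in wild-type sham muscle. The ranges overlapped. Herpud1 fell in 6-OHDA muscle by a log2 difference of -0.41 ± 0.15 SE (limma adjusted p = 0.0421), and over the 15 fits that each left out 1 library it passed in 5 (adjusted p up to 0.0948). Xbp1 (ENSMUSG00000020484, chromosome 11, 5520659 to 5525893), which encodes the transcription factor of the IRE1 branch, ranged over 22.5 to 29.2 FPKM (median 25.2) after 6-OHDA and 27.4 to 31.5 FPKM (median 29.2) after sham. All but 1 injected library lay below the lowest sham library, and the log2 difference of -0.21 did not pass (limma adjusted p = 0.0637). It passed with the same difference when the spread was taken from wild-type libraries alone (limma adjusted p = 0.00367).

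In the ATF4 branch, Asns rose and Atf4 fell as deposited; under own totals Asns still passed and Atf4 did not. Atf4 (ENSMUSG00000042406, chromosome 15, 80255184 to 80257541), the transcription factor of the branch, had 76.0, 59.7, 72.3 and 86.1 FPKM at ZT12 and 60.4, 68.3, 74.8 and 75.4 FPKM at ZT0 in wild-type 6-OHDA muscle, against 93.9, 97.6 and 93.2 FPKM at ZT12 and 104, 83.6, 101 and 101 FPKM at ZT0 in wild-type sham muscle. The injected libraries were lower apart from 1 ZT12 library, at 86.1 FPKM, above the lowest sham library, at 83.6 FPKM. Atf4 fell in 6-OHDA muscle, to 71.6 ± 8.71 FPKM (SD, n = 8), against 96.4 ± 6.90 FPKM in sham muscle (SD, n = 7), a log2 difference of -0.43 ± 0.13 SE and 1.35-fold lower (limma adjusted p = 0.0158). Asns (ENSMUSG00000029752, chromosome 6, 7675169 to 7693254), asparagine synthetase and a standard ATF4 target, had 0.822, 1.30, 1.72 and 1.04 FPKM at ZT12 and 1.98, 1.18, 1.82 and 1.08 FPKM at ZT0 in wild-type 6-OHDA muscle, against 0.631, 0.626 and 0.848 FPKM at ZT12 and 0.654, 0.963, 0.436 and 0.551 FPKM at ZT0 in wild-type sham muscle. The injected libraries were higher, with 1 ZT12 library inside the sham range. Asns rose 1.98-fold, to 1.37 ± 0.420 FPKM in 6-OHDA muscle (SD, n = 8), against 0.673 ± 0.178 FPKM in sham muscle (SD, n = 7), a log2 difference of 0.99 ± 0.25 SE (limma adjusted p = 0.00657; 0.00681 with no filter on low values). Ddit3 (ENSMUSG00000025408, chromosome 10, 127290774 to 127296288) encodes CHOP, a transcription factor induced by ATF4, and ranged over 8.43 to 17.7 FPKM (median 11.3) after 6-OHDA and 10.8 to 17.2 FPKM (median 13.5) after sham. Trib3 (ENSMUSG00000032715, chromosome 2, 152337422 to 152344032) encodes a pseudokinase that is induced by ATF4 and CHOP and dampens their activity. It ranged over 0.670 to 0.997 FPKM (median 0.818) after 6-OHDA and 0.310 to 0.851 FPKM (median 0.610) after sham. Both genes overlapped between treatments and did not pass, with log2 differences of -0.24 for Ddit3 and 0.41 for Trib3.

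**Figure D2:**
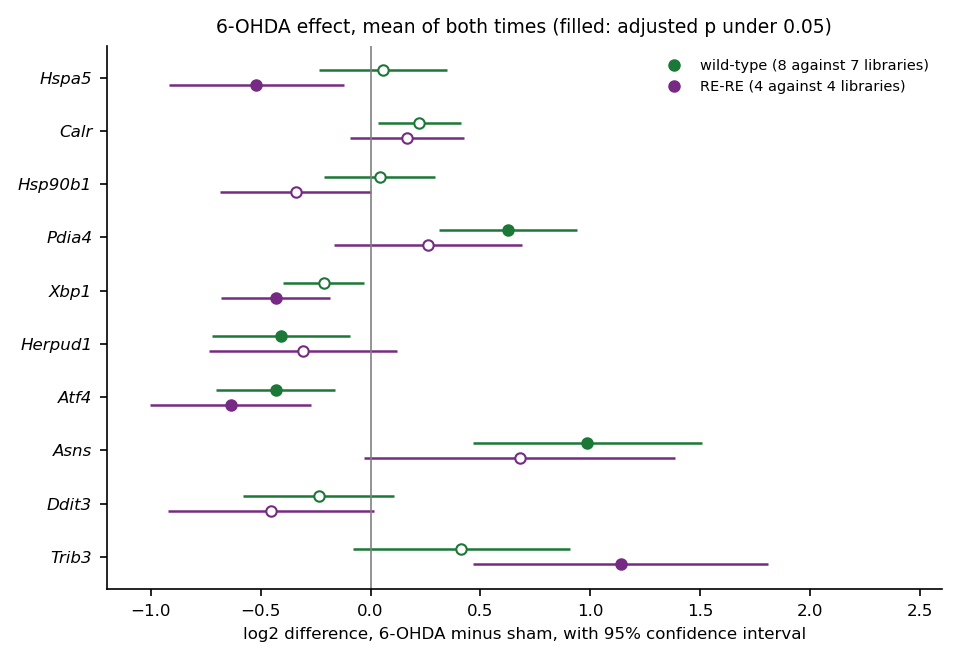
Log2 difference of each gene between 6-OHDA and sham muscle, as the mean of both times, with its 95% confidence interval, for wild-type mice (green, 8 against 7 libraries) and RE-RE mice (purple, 4 against 4 libraries); filled points passed at an adjusted p under 0.05. Pdia4 and Asns lie above 0 and Atf4 and Herpud1 below it in wild-type mice, and Atf4 is the one gene that passed in both genotypes.

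Other cell types moved with these differences. In wild-type muscle the 12 macrophage markers summed to 153 to 538 FPKM after 6-OHDA and 26.6 to 71.2 FPKM after sham, and 11 of the 11 tested passed higher. The 8 fibroblast and matrix markers summed to 496 to 1606 FPKM after 6-OHDA and 134 to 354 FPKM after sham, and 8 of 8 passed higher. Regenerating fibre markers summed to 73.5 to 295 FPKM after 6-OHDA and 42.1 to 74.7 FPKM after sham, and 7 of 8 passed higher. Muscle fibre markers summed to 33676 to 47889 FPKM after 6-OHDA and 51039 to 64161 FPKM after sham, with 5 of 8 lower and 2 higher. Slow fibre markers summed to 109 to 208 FPKM after 6-OHDA and 59.3 to 129 FPKM after sham, and 5 of 6 passed higher. Schwann cell markers summed to 9.92 to 20.97 FPKM after 6-OHDA and 5.25 to 16.2 FPKM after sham, and 3 of 6 passed higher, as did 1 of 6 endothelial and 2 of 5 tested adipocyte markers. Endothelial markers summed to a median of 107 FPKM after 6-OHDA and 77.8 FPKM after sham. The adipocyte sum was not higher, with a median of 65.9 FPKM (60.9 to 128) after 6-OHDA and 70.5 FPKM (63.7 to 82.8) after sham. Plasma cells, which are rich in ER chaperones, had markers that summed to 11.4 to 23.1 FPKM after 6-OHDA and 16.3 to 25.7 FPKM after sham, with 1 of 4 tested higher and 2 lower. No marker measured was at 0 in all libraries. In whole muscle, fewer cells of a type and less RNA per cell cannot be told apart, and the part of cell composition in the members' differences was not tested.

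Scaling moved the members together. The 13 mitochondrial genes summed to 47038 to 130280 FPKM in wild-type 6-OHDA muscle and 144054 to 224953 FPKM in wild-type sham muscle, with 12 of 13 passing lower; their part in the scaling was not tested. Dividing each library by its own total of recovered reads moved the median of all genes to 0.29, and the genes called to 5122 higher and 467 lower, against 2422 higher and 2047 lower as deposited and 2269 higher and 2409 lower after quantile normalization. Under own totals, Pdia4 and Asns still passed, at log2 differences of 0.96 (limma adjusted p = 0.00187) and 1.32 (limma adjusted p = 0.00282), and Hspa5 (0.39), Calr (0.56), Hsp90b1 (0.38) and Trib3 (0.74) passed higher as well. Atf4 was then at -0.10 (limma adjusted p = 0.309) and Herpud1 at -0.07, so neither passed, and Xbp1 and Ddit3 turned positive, at 0.12 and 0.10. Relative to the median of all genes, Pdia4 stood at 0.67 both as deposited and under own totals, Asns at 1.03 both ways, Atf4 at -0.39 both ways and Herpud1 at -0.37 and -0.36. After quantile normalization Pdia4 (0.67), Asns (0.79) and Calr (0.43) passed higher and Atf4 (-0.21) lower, and Herpud1 (-0.22) did not pass.

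**Figure D3:**
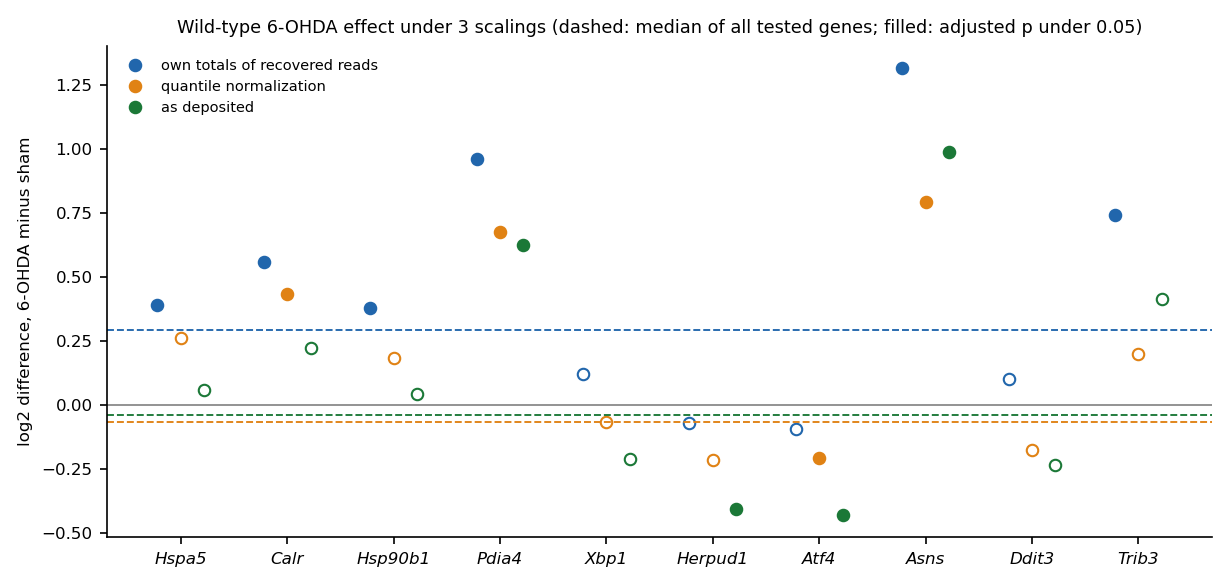
Log2 difference between wild-type 6-OHDA and sham muscle, mean of both times, for each gene under 3 scalings: own totals of recovered reads, quantile normalization and values as deposited; dashed lines mark the median of all genes tested under each. Filled points passed at an adjusted p under 0.05. Own totals put every gene above its deposited value, with the median of all genes at 0.29.

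The difference was also taken at each time. At ZT0, 3 members passed, all higher in 6-OHDA muscle, against 23.8% of all genes, 13.6% higher and 10.2% lower. Asns is among the 3 and entered the tests through the injected group, so this count supports nothing by itself. Pdia4 had 15.6, 10.9, 14.8 and 11.0 FPKM in wild-type 6-OHDA muscle and 7.09, 8.49, 6.63 and 7.06 FPKM in wild-type sham muscle at ZT0. The groups did not overlap, and Pdia4 rose 1.77-fold (log2 0.83 ± 0.20 SE, limma adjusted p = 0.0122). Asns did not overlap between the groups either and rose 2.33-fold (log2 1.22 ± 0.34 SE, limma adjusted p = 0.0178). Calr had 74.3, 63.7, 68.0 and 53.9 FPKM in 6-OHDA muscle and 52.2, 56.0, 42.4 and 46.4 FPKM in sham muscle at ZT0. The lowest injected library lay inside the sham range, and Calr rose 1.32-fold (log2 0.40 ± 0.12 SE, limma adjusted p = 0.0282). Atf4 and Herpud1 lay below sham in every injected library at ZT0, at log2 differences of -0.48 and -0.45, neither of them called. Of all genes, 16% had every 6-OHDA library higher and 16% every one lower at ZT0, against 2 of 10 members each way, with Asns among the 2 higher. Leaving out 1 library at a time left 0 to 4 members called: 0 without 6-OHDA library 1, and 1 without sham library 3 or 6-OHDA library 3.

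At ZT12 no member passed in limma, where 0.0156% of all genes did, although 2 members and 2632 of all genes had an unadjusted p under 0.05. Voom on recovered reads called 0 as well. The smallest p was that of Xbp1, with 23.6, 25.5, 22.5 and 24.6 FPKM in 6-OHDA muscle and 28.4, 31.5 and 29.9 FPKM in sham muscle. Every injected library was lower, and the log2 difference was -0.32 ± 0.13 SE (limma adjusted p = 0.184). Without overlap at ZT12, Pdia4 and Trib3 were higher and Xbp1, Herpud1 and Atf4 lower in every 6-OHDA library, beside 20.6% of all genes higher and 20.6% lower. Trib3 entered the tests through the injected group, so the count of higher members supports nothing by itself. A test of whether the 6-OHDA difference changed with time in wild-type mice called no member in limma (0.00778% of all genes), with 0 members under an unadjusted p of 0.05 and 0 by voom. Its smallest p was that of Hsp90b1 (log2 -0.49 ± 0.24 SE, limma adjusted p = 0.9998), so that passing at ZT0 and not at ZT12 was not a difference that the test of the change called.

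In RE-RE mice, 4 members also passed between 6-OHDA and sham muscle: Trib3 higher, and Atf4, Xbp1 and Hspa5 lower. Of all genes 26.7% passed, 11.8% higher and 14.9% lower. The members' median log2 difference was -0.32, beside -0.02 over all genes. Of the 8 members that reached the minimum in every library, 0 passed higher and 3 lower, with a median of -0.39. Trib3 had 0.617 and 0.711 FPKM at ZT12 and 1.42 and 0.414 FPKM at ZT0 in RE-RE 6-OHDA muscle, against 0.280 and 0.309 FPKM at ZT12 and 0.328 and 0.361 FPKM at ZT0 in RE-RE sham muscle. Every injected library was higher, that of library 1 most, and Trib3 was the 1 member of the 10 without overlap (2.71% of all genes had every injected library higher, 1.91% every one lower). Trib3 entered the tests through injected libraries only, library 1 among them, so this separation supports nothing by itself. Trib3 rose 2.20-fold, to 0.789 ± 0.435 FPKM after 6-OHDA (SD, n = 4), against 0.320 ± 0.0340 FPKM after sham (SD, n = 4), a log2 difference of 1.14 ± 0.32 SE (limma adjusted p = 0.0220; 0.0221 with no filter on low values).

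Atf4 had 73.0 and 57.7 FPKM at ZT12 and 65.7 and 109 FPKM at ZT0 in RE-RE 6-OHDA muscle, against 151 and 89.0 FPKM at ZT12 and 124 and 106 FPKM at ZT0 in RE-RE sham muscle. Injected library 2 lay inside the sham range and the other 3 below it. Atf4 fell to 76.5 ± 22.9 FPKM after 6-OHDA, against 118 ± 26.8 FPKM after sham (SD, n = 4 each), a log2 difference of -0.64 ± 0.17 SE (limma adjusted p = 0.0206). Xbp1 had 28.5 and 22.98 FPKM at ZT12 and 22.4 and 22.5 FPKM at ZT0 in RE-RE 6-OHDA muscle, against 41.4 and 25.9 FPKM at ZT12 and 31.5 and 32.4 FPKM at ZT0 in RE-RE sham muscle. Only the highest injected library reached into the sham range, and Xbp1 fell by a log2 difference of -0.43 ± 0.12 SE (limma adjusted p = 0.0207). Hspa5 had 43.8 and 39.3 FPKM at ZT12 and 45.8 and 45.8 FPKM at ZT0 in RE-RE 6-OHDA muscle, against 87.7 and 40.2 FPKM at ZT12 and 82.0 and 52.7 FPKM at ZT0 in RE-RE sham muscle. Sham libraries 1 and 3, at 82.0 and 87.7 FPKM, were the high ones, while sham library 4 was near the lowest injected library. Hspa5 fell by a log2 difference of -0.52 ± 0.19 SE (limma adjusted p = 0.0493; 0.0515, and so not called, with no filter on low values).

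The 6 other members did not pass in RE-RE mice, with log2 differences of 0.68 for Asns, 0.26 for Pdia4, 0.17 for Calr, -0.31 for Herpud1, -0.34 for Hsp90b1 and -0.45 for Ddit3. Pdia4 ranged over 6.24 to 12.6 FPKM (median 10.1) in RE-RE 6-OHDA muscle and 6.55 to 11.4 FPKM (median 7.19) in RE-RE sham muscle. Asns ranged over 0.694 to 1.76 FPKM (median 1.30) in RE-RE 6-OHDA muscle and 0.475 to 1.35 FPKM (median 0.700) in RE-RE sham muscle. Both genes overlapped between the treatments in RE-RE mice.

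These RE-RE calls rested on single libraries and on the pooled spread. Leaving out 1 library at a time gave 0 to 6 members called, with 0 without sham library 1, sham library 3, 6-OHDA library 1 or 6-OHDA library 4. None passed when the spread came from the 8 RE-RE libraries alone or with age as a covariate. Without 6-OHDA library 2, Trib3 (log2 1.58, limma adjusted p = 0.00107), Pdia4 (0.52, adjusted p = 0.0371) and Asns (0.94, adjusted p = 0.0436) passed higher and Atf4 (-0.82, adjusted p = 0.00245) and Xbp1 (-0.43, adjusted p = 0.0172) lower. Without this library and sham libraries 1 and 3, which earlier work on these data had set apart, Hspa5 was at -0.08 (limma adjusted p = 0.719) and Xbp1 at -0.27 (adjusted p = 0.0666), and Trib3, Pdia4, Atf4 and Herpud1 passed. Sham libraries 1 and 3 deviated by 0.420 and 0.427, no more than sham library 4 at 0.433, and are the sham libraries with the most Hspa5, so this value for Hspa5 follows in part from which libraries were left out. Under own totals, where the median of all genes was 0.37 and 3987 genes were called higher and 476 lower (as deposited, 1522 and 1916), Trib3 (1.51) and Calr (0.55) passed higher, and Atf4 (-0.25), Hspa5 (-0.13) and Xbp1 (-0.04) did not pass.

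Markers of other cells also moved between RE-RE 6-OHDA and sham muscle. Slow fibre markers summed to 142 to 546 FPKM after 6-OHDA and 52.2 to 113 FPKM after sham, with 5 of 6 passing higher (median log2 3.47). Regenerating fibre markers summed to 38.4 to 219.9 FPKM after 6-OHDA and 27.2 to 47.2 FPKM after sham, with 7 of 8 passing higher (median log2 2.85), and 2 of 6 endothelial markers passed higher. Mitochondrial genes summed to 64845 to 171229 FPKM after 6-OHDA and 161252 to 323053 FPKM after sham, with 8 of 13 passing lower. None of the 11 macrophage, 8 fibroblast and matrix, 6 Schwann cell or 5 adipocyte markers tested passed in limma, and 1 of 8 muscle fibre markers passed higher and 1 of 4 plasma cell markers lower. 6-OHDA library 2 had macrophage markers at 19.4 FPKM and fibroblast markers at 139 FPKM, below all RE-RE sham libraries (31.7 to 100 FPKM and 189 to 822 FPKM), and regenerating fibre markers at 38.4 FPKM, inside the sham range. Its slow fibre markers, at 142 FPKM, lay above every RE-RE sham library. The part of these markers in the members' differences was not tested.

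The test of a difference between the genotypes in the 6-OHDA effect called no member in limma (0.07% of all genes). One member had an unadjusted p under 0.05, as did 1900 of all genes, and voom on recovered reads called 0 members. That member was Hspa5, whose 6-OHDA difference was lower by 0.57 ± 0.23 SE on the log2 scale in RE-RE than in wild-type mice (log2 -0.57, limma adjusted p = 0.279). Without RE-RE sham library 4, Hspa5 (-0.86, limma adjusted p = 0.0158) and Xbp1 (-0.39, adjusted p = 0.0456) passed. For Trib3, called in RE-RE mice and not in wild-type mice, the difference between genotypes was 0.73 ± 0.40 SE (limma adjusted p = 0.392), and for Pdia4, called in wild-type mice and not in RE-RE mice, it was -0.36 ± 0.25 SE (limma adjusted p = 0.4932).

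RE-RE and wild-type muscle were compared within each treatment. In sham muscle, 1 member passed, beside 9.94% of all genes (4.75% higher and 5.19% lower). Trib3 fell to 0.320 ± 0.0340 FPKM in RE-RE sham muscle (SD, n = 4), against 0.649 ± 0.195 FPKM in wild-type sham muscle (SD, n = 7), a log2 difference of -0.92 ± 0.28 SE (limma adjusted p = 0.0484). Trib3 reached the minimum for testing in 0 sham libraries, and was tested through injected libraries outside this comparison. The lowest wild-type library, at 0.310 FPKM, lay within the RE-RE range, and the RE-RE sham mice were 10 to 11 weeks old and the wild-type sham mice 12 to 18 weeks. This call was lost in 10 alternatives, in 2 of them because Trib3 was not tested, and own totals, quantile normalization and age as a covariate were among the others; leaving out 1 library gave 0 to 5 members called. Hspa5 averaged 65.6 ± 22.9 FPKM in RE-RE sham muscle and 44.5 ± 5.10 FPKM in wild-type sham muscle, which gave a log2 difference of 0.48 (not called; limma adjusted p = 0.0694). In 6-OHDA muscle no member passed in limma, where 0.226% of all genes did, with 0 members under an unadjusted p of 0.05 and 0 by voom. The smallest p there was that of Pdia4, with 9.77 ± 2.84 FPKM in RE-RE and 11.0 ± 2.93 FPKM in wild-type 6-OHDA muscle (log2 -0.18 ± 0.18 SE, limma adjusted p = 0.828).

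Time of day was compared within each genotype and treatment, and no member passed in any of the 4 comparisons in limma as fitted or by voom on recovered reads. In wild-type 6-OHDA muscle, where 0.669% of all genes passed, 4 members had an unadjusted p under 0.05, as did 941 of all genes. Calr had 48.2, 51.5, 47.9 and 50.2 FPKM at ZT12, against 74.3, 63.7, 68.0 and 53.9 FPKM at ZT0. Every ZT12 library was lower, and the log2 difference was -0.38 ± 0.12 SE (limma adjusted p = 0.286). Pdia4 and Hsp90b1 were also lower in every ZT12 than in every ZT0 library of wild-type 6-OHDA muscle, at log2 differences of -0.56 and -0.38, beside 3.27% of all genes lower without overlap. Herpud1 had 54.6, 41.2, 46.6 and 58.9 FPKM at ZT12, against 27.5, 36.0, 32.9 and 36.4 FPKM at ZT0, in 6-OHDA muscle. Every ZT12 library was higher (log2 0.59 ± 0.20 SE, limma adjusted p = 0.346), as was the case for Trib3, beside 4.01% of all genes. Trib3 entered the tests in part through a ZT12 library of this group, library 8, so its separation supports nothing by itself.

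In wild-type sham muscle 0.646% of all genes passed, and 1 member had an unadjusted p under 0.05, as did 872 of all genes. Herpud1 was also the member with the smallest p there. It had 61.6, 60.8 and 71.0 FPKM at ZT12, against 54.7, 42.7, 42.7 and 41.5 FPKM at ZT0. The ZT12 libraries were all higher, with a log2 difference of 0.51 ± 0.22 SE (limma adjusted p = 0.618). Hspa5 too was higher in every ZT12 sham library, at 45.9, 53.1 and 46.4 FPKM, against 42.5, 36.1, 44.6 and 42.9 FPKM at ZT0. Of all genes, 5.73% were higher in every ZT12 sham library and 6.49% lower, against 2 members higher and 0 lower. In RE-RE sham muscle (0.0545% of all genes passed) the smallest p was again that of Herpud1, with 48.9 and 66.9 FPKM at ZT12 and 27.5 and 56.6 FPKM at ZT0. The libraries overlapped, and the log2 difference was 0.53 ± 0.29 SE (limma adjusted p = 1). In RE-RE 6-OHDA muscle (0.109% of all genes passed) the smallest p was that of Ddit3, with 15.3 and 11.1 FPKM at ZT12 and 6.88 and 10.5 FPKM at ZT0. Both ZT12 libraries were higher, with a log2 difference of 0.62 ± 0.32 SE (limma adjusted p = 0.402). In these groups of 2 libraries, 2 members were higher and 2 lower at ZT12 without overlap, and the share of all genes was not counted. No member had an unadjusted p under 0.05 in either RE-RE comparison of time, against 661 of all genes in sham and 1704 in 6-OHDA muscle.

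**Figure D4:**
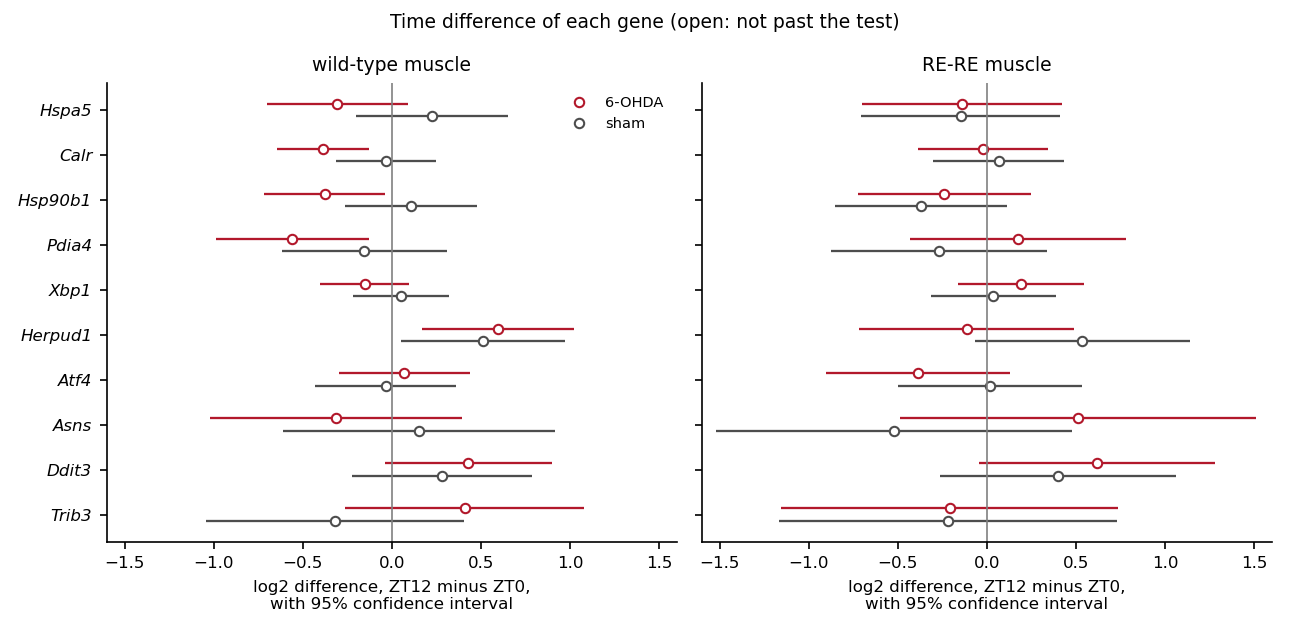
Log2 difference between ZT12 and ZT0 for each gene, with its 95% confidence interval, in 6-OHDA muscle (red) and sham muscle (grey) of wild-type mice on the left and RE-RE mice on the right; all points are open because none passed. Herpud1 lies above 0 in wild-type 6-OHDA, wild-type sham and RE-RE sham muscle, and Calr, Hsp90b1 and Pdia4 lie below 0 in wild-type 6-OHDA muscle.

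The wider pathway was read from 7 lists of other genes, in wild-type 6-OHDA against sham muscle with the mean of both times, beside the 18.8% of all genes that passed higher and the 15.9% that passed lower. Counts for RE-RE mice stand beside 11.8% of all genes higher and 14.9% lower, and those under own totals in wild-type mice beside 39.8% higher and 3.63% lower, with a median of all genes of 0.29. For RE-RE mice under own totals these shares were 31.0% higher and 3.70% lower, with a median of all genes of 0.37. Of 8 stress sensors and eIF2 kinases, 3 passed higher and 0 lower (median log2 0.06): Atf6 (0.22 ± 0.08 SE, limma adjusted p = 0.0403), the PERK gene Eif2ak3 (0.50 ± 0.18, adjusted p = 0.0423) and the PKR gene Eif2ak2 (0.42 ± 0.16, adjusted p = 0.0440). All 3 failed after quantile normalization, and none passed in RE-RE mice. Under own totals in wild-type mice, 4 of the 8 passed higher and 0 lower (median 0.40), and in RE-RE mice 2 higher and 0 lower (median 0.52). Of 19 other ER chaperones and foldases, 4 passed higher and 1 lower (median 0.20). The disulfide isomerases Pdia3 (0.70 ± 0.16, limma adjusted p = 0.00383) and Txndc5 (0.57 ± 0.12, adjusted p = 0.00286) rose, and Dnajb9, a co-chaperone of BiP, fell (-0.50 ± 0.13, adjusted p = 0.00671). Dnajb9 fell in RE-RE mice too, with overlap between libraries (-0.59, limma adjusted p = 0.0242), and in wild-type mice under own totals it was at -0.16 and did not pass. In RE-RE mice 2 of the 19 passed higher and 2 lower (median 0.00), and Pdia3 (0.45) and Txndc5 (0.27) were not among them. Under own totals in RE-RE mice 7 of the 19 passed higher and 0 lower (median 0.39). Under own totals in wild-type mice, 15 of the 19 passed higher and 0 lower (median 0.53).

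Of 13 tested genes of ER-associated degradation, which returns misfolded proteins to the cytosol, 3 passed higher and 1 lower (median 0.03). Os9, a lectin that recognises misfolded glycoproteins, rose in wild-type mice (0.63 ± 0.16, limma adjusted p = 0.00595) and in RE-RE mice (0.63, adjusted p = 0.0369). Its injected and sham libraries overlapped in RE-RE mice. Edem1, which acts in trimming their sugars, rose in wild-type mice (0.55 ± 0.16, limma adjusted p = 0.0141), and Ube2j2, a ubiquitin-conjugating enzyme, fell (-0.32 ± 0.08, adjusted p = 0.00815) but was at 0.01 under own totals. Of the 13, 10 passed higher and 0 lower under own totals in wild-type mice (median 0.37). Of 14 genes of ER translocation, 1 passed higher and 4 lower (median -0.32). Sec61a1, the channel subunit, rose (0.90 ± 0.18, limma adjusted p = 0.00246), while Srp14 of the signal recognition particle (-0.55 ± 0.15, adjusted p = 0.0110) and Ssr4 (-0.42 ± 0.12, adjusted p = 0.0155) fell. Under own totals Srp14 (-0.22) and Ssr4 (-0.09) did not pass, and 5 of the 14 passed higher and 0 lower, with a median of 0.02 that lay below the 0.29 of all genes. In RE-RE mice 0 of the 14 passed higher and 3 lower (median -0.44). Under own totals in RE-RE mice 2 passed higher and 0 lower, with a median of -0.05 that lay below the 0.37 of all genes.

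Of 16 other ATF4 and CHOP targets tested, 4 passed higher and 2 lower in wild-type mice (median 0.15), and 4 higher and 2 lower in RE-RE mice (median 0.34). The genes that passed lower were Cebpb and Chac1 in wild-type mice and Cebpg and Vldlr in RE-RE mice, and of those higher Bbc3, Gdf15 and Slc7a5 passed in both, Nupr1 in wild-type and Ddit4 in RE-RE mice; these names were picked after their values were seen. Gdf15, a secreted stress cytokine, rose in wild-type mice (3.49 ± 0.69, limma adjusted p = 0.00210) at low levels, 0.682 ± 0.300 FPKM after 6-OHDA and 0.0756 ± 0.0627 FPKM after sham (SD, n = 8 and 7). It rose in RE-RE mice by 2.62 (limma adjusted p = 0.0467), with overlap between injected and sham libraries. Its RE-RE means were 1.22 ± 1.31 FPKM after 6-OHDA and 0.0870 ± 0.0345 FPKM after sham (SD, n = 4 each). Slc7a5, a transporter of large neutral amino acids, rose in wild-type mice (1.53 ± 0.33, limma adjusted p = 0.00318) and in RE-RE mice (1.34, adjusted p = 0.0384). The injected and sham libraries of Slc7a5 overlapped in both genotypes. Gdf15 reached the minimum in 4 libraries and Slc7a5 in 6, all of them injected; with no filter on low values their limma adjusted p in wild-type mice was 0.00205 and 0.00330, and the list had 5 of 17 genes higher and 2 lower. Of the 11 genes whose log2 FPKM averaged 1 or more, 1 passed higher and 2 lower (median -0.05). In RE-RE mice 1 of these 11 passed higher and 2 lower (median 0.08), and with no filter 4 of 17 genes higher and 2 lower. Under own totals in wild-type mice, 8 of the 16 passed higher and 1 lower (median 0.48), and in RE-RE mice 8 higher and 1 lower (median 0.72). Chac1, which degrades glutathione, fell in wild-type mice (-1.52 ± 0.43, limma adjusted p = 0.0118), to 6.13 ± 3.997 FPKM after 6-OHDA, against 14.8 ± 6.26 FPKM after sham, and was at 0.03 in RE-RE mice.

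Amino acid synthesis and one-carbon genes driven by ATF4 had the highest of the 7 list medians in wild-type mice, 0.78, with 5 of 9 tested genes higher and 3 lower, and with no filter on low values 6 of 10 higher and 3 lower. Of the 3 whose log2 FPKM averaged 1 or more, 0 passed higher and 2 lower (median -0.48), so the 5 higher genes all lay below that level. Psat1 (1.88 ± 0.39, limma adjusted p = 0.00239) and Phgdh (1.56 ± 0.32, adjusted p = 0.00237) of serine synthesis and Aldh18a1 of proline synthesis (1.30 ± 0.27, adjusted p = 0.00235) rose. Phgdh averaged 1.505 ± 0.389 FPKM after 6-OHDA and 0.503 ± 0.119 FPKM after sham, and Psat1 averaged 0.995 ± 0.278 FPKM after 6-OHDA and 0.269 ± 0.0904 FPKM after sham (SD, n = 8 and 7). Psat1 reached the minimum in 6 injected and 0 sham libraries and Phgdh in 11 injected libraries and 1 sham library; with no filter their limma adjusted p was 0.00245 and 0.00251. In RE-RE mice the list's median was 0.58, with 0 genes higher and 1 lower, and Psat1 (1.33, limma adjusted p = 0.0639) and Aldh18a1 (0.97, adjusted p = 0.0534) did not pass. The 3 genes whose log2 FPKM averaged 1 or more had a median of -0.55 in RE-RE mice, with 0 higher and 1 lower. Under own totals in wild-type mice, 5 of the list's 9 genes passed higher and 1 lower (median 1.11). In RE-RE mice under own totals 5 passed higher and 1 lower (median 0.97). The aminoacyl-tRNA synthetases, which charge tRNA and are induced by ATF4 in other settings, had 0 of 20 higher and 3 lower in wild-type mice (median -0.21) and 0 higher and 6 lower in RE-RE mice (median -0.18). Mars (-0.60 ± 0.15, limma adjusted p = 0.00638), Sars (-0.33 ± 0.11, adjusted p = 0.0231) and Kars (-0.27 ± 0.09, adjusted p = 0.0259) fell. Under own totals none of these 3 passed (Mars -0.27, Sars 0.00, Kars 0.06), and 2 of the 20 passed higher and 0 lower, with a median of 0.12 that lay below the 0.29 of all genes. In RE-RE mice under own totals 5 of the 20 passed higher and 0 lower, with a median of 0.21 that lay below the 0.37 of all genes.

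**Figure D5:**
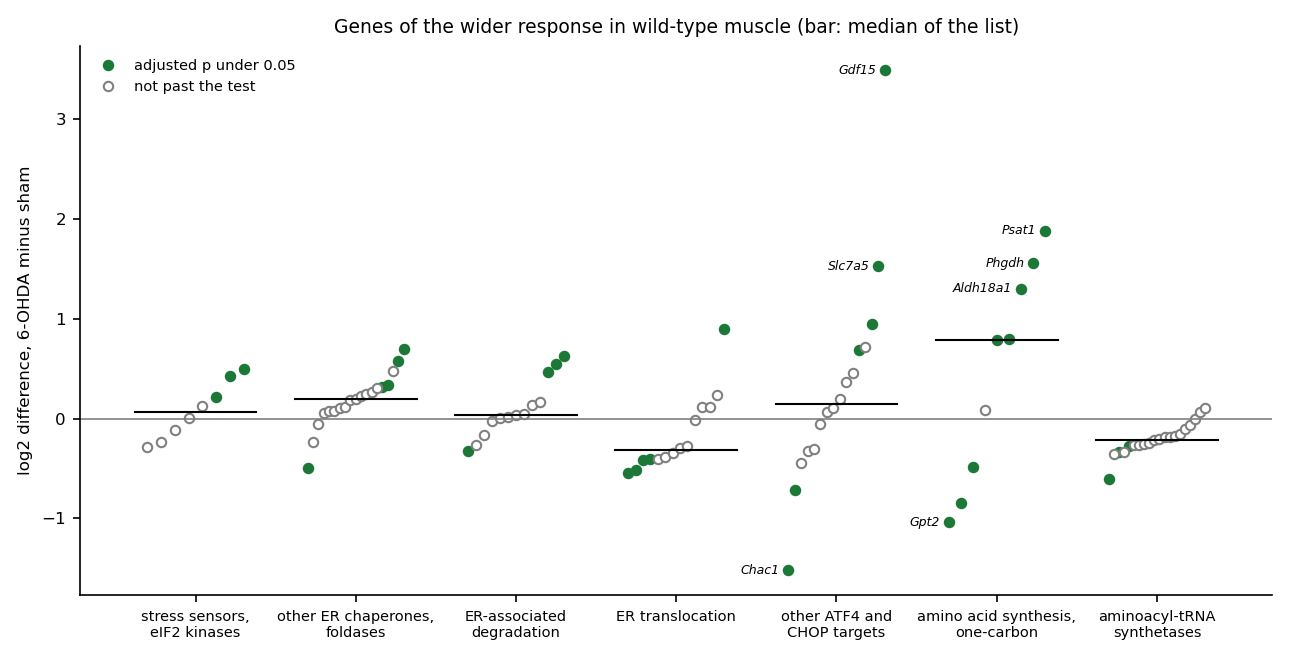
Log2 difference of each tested gene of 7 lists between wild-type 6-OHDA and sham muscle, as the mean of both times; filled points passed at an adjusted p under 0.05 and the bar is the list's median. The amino acid synthesis list has the highest median, 0.78, and ER translocation the lowest, -0.32.

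The genes most like the members over the 23 libraries were found by Pearson correlation of log2 FPKM, among tested genes outside the 10 whose log2 FPKM averaged at least 1. For the mean of the 4 chaperones these were Pdia6 (r = 0.916), another ER disulfide isomerase, then Azin1 (0.888), Slc4a7 (0.883), Stt3a (0.883) and Armcx3 (0.878). For the mean of Atf4, Asns, Ddit3 and Trib3 they were Avpi1 (r = 0.764), Dhrs7 (0.753), Pdlim1 (0.732), Hspb7 (0.712) and Procr (0.708). These 4 members did not move together. Between wild-type 6-OHDA and sham muscle, Atf4 was at -0.43 and Ddit3 at -0.24, but Asns at 0.99 and Trib3 at 0.41. Their mean is thus not a shared profile. The 4 chaperones differed among themselves too. Between RE-RE 6-OHDA and sham muscle, Hspa5 was at -0.52 and Hsp90b1 at -0.34, but Pdia4 at 0.26 and Calr at 0.17. The libraries share genotype, treatment, time and scaling, so these values describe the 23 libraries and carry no test.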

How the data were processed

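RNA of whole tibialis anterior muscle was sequenced as read pairs, per the labels' protocols. The submitters' processing notes name edgeR 3.30.0, featureCounts 1.6.2 and HISAT2 2.1.0, with Trim Galore 0.5.0 and FastQC 0.11.8 for trimming and quality checks, and the build GRCm38. The authors deposited 1 table of log2 values, log2(FPKM + 0.01) for 14500 genes, whose lowest value, -6.64, is an FPKM of 0. Any factor the authors applied between libraries is not given in the sources used here, though the totals behind the values differ from the sums of recovered reads.

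Symbols and exon lengths came from GENCODE M21 (14435 genes). Genes whose deposited log2 value was at least 0 (an FPKM of about 1) in 2 or more libraries entered the tests (12855 genes). They were fitted on the log2 scale with limma 3.58.1 in R 4.3.3, using lmFit, then contrasts.fit, then eBayes with its trend option, 1 mean for each of the 8 groups and a spread pooled over 23 libraries, and p-values were Benjamini-Hochberg adjusted over all genes tested. FPKM means and SD are on the linear scale. The 10 members, the gene lists and the tests were chosen with earlier results of these data known. Full statistics are given for members past 0.05 or, where none passed, the member with the smallest p, and for up to 3 genes per list with the smallest p among those that passed in wild-type 6-OHDA muscle. Reads were recovered from the steps between low FPKM values and the exon lengths; 86.4% to 94.7% of values up to 20 reads were whole within 0.1 read. Recovered reads served as own totals and, in limma-voom, as counts. Depth limits the precision of Asns and Trib3 most. The other alternatives were a pseudocount of 1, other filters, quantile normalization, array weights, age, compared groups only, a replicate block, leaving out each library, and leaving out RE-RE 6-OHDA library 2 and RE-RE sham libraries 1 and 3, which earlier work on these data had set apart. The fit was tested on simulated data. Promoter windows came from RefSeq tables. Tables and plots were made in python 3.11.15 with matplotlib 3.10.9, pandas 2.3.3 and numpy 2.4.6. Isoforms, splicing and raw reads are not analysed here.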

Additional observations from a re-analysis of the deposited data

Results flagged for a closer look

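In wild-type sham muscle at ZT0, library 1 stood apart for Herpud1, at 54.7 FPKM, against 41.5 to 42.7 FPKM in the other 3 libraries. In the same group, library 2 stood apart for Atf4, at 83.6 FPKM, against 101 to 104 FPKM in the other 3. The gap of each to its nearest neighbour was large for the range of its group. These were found among 30 groups of 4 libraries, and such a gap arises by chance in about 1 in 20 groups.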

How the results depend on the processing

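Pdia4 (log2 0.57 to 0.66), Asns (0.90 to 1.09) and Atf4 (-0.47 to -0.38) passed between wild-type 6-OHDA and sham muscle in all 15 fits that left out 1 library, and the number of members called ranged over 3 to 5. With array weights 7 members passed there. At ZT0, where 3 passed, 5 passed after quantile normalization, under own totals, with voom and from the compared groups only, 7 with array weights and 7 without RE-RE 6-OHDA library 2 and RE-RE sham libraries 1 and 3; leaving out 1 library gave 0 to 4. At ZT12, where 0 passed, array weights gave 5, compared groups only 2, and the fit without those 3 libraries 1. Between RE-RE 6-OHDA and sham muscle, where 4 passed, quantile normalization gave 1 (Atf4), own totals and voom gave 2 (Trib3 and Calr, which was not called as deposited), and array weights, age and compared groups only gave 0, and leaving out 1 library gave 0 to 6. The difference between genotypes in the 6-OHDA effect had 0 to 2 members called with 1 library left out. In RE-RE against wild-type sham muscle, where 1 passed (Trib3), the call was lost in 10 alternatives, which left 0, and leaving out 1 library gave 0 to 5. Between ZT12 and ZT0, where 0 passed, array weights gave 1 in wild-type sham and 6 in wild-type 6-OHDA muscle, and the fit without the 3 libraries gave 1 in wild-type 6-OHDA muscle. Pdia4 between RE-RE and wild-type 6-OHDA muscle (log2 -0.18) reversed to 0.079 without the 3 libraries; with 1 library left out it ranged over -0.43 to 0.079, reversing only without RE-RE 6-OHDA library 2. The cause of these changes was not tested.

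The replicate block gave 5 members called in wild-type mice (Xbp1 added), 2 at ZT0 (Calr lost, adjusted p = 0.0535) and 4 in RE-RE mice. Same-numbered libraries do not appear paired: their deviations correlated at -0.12 to 0.06 in wild-type mice and 0.10 to 0.16 in RE-RE mice, where groups of 2 leave only 1 value per time, and ages matched in 1 of 11 pairs. The filter on a mean log2 FPKM of at least 1 left Asns and Trib3 untested, and a strict FPKM of at least 1, chosen after seeing the data, left Trib3 untested. Asns and Trib3 had the fewest reads, so their changes are the least precise.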
